A study of Rattus norvegicus with 64 samples.

Results

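Dust-exposed rat lungs taken 27 days after the last exposure at 30 mg/m3 were compared with dust-exposed lungs taken 7 days after it, across all genes of the count table for that dose. Every dust library of those days entered the comparison, which gives 6 rats at day 27 and 6 rats at day 7, or 12 of the 64 libraries of the series. The comparison asks what changed late in the lung after a short dust exposure. The 6 air rats of day 27 and the 6 air rats of day 7 from the same study show the same interval without dust.

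All rats were male Sprague-Dawley, an outbred laboratory stock, and the labels name no engineered allele. The dust rats had breathed fracking sand dust at 30 mg/m3 in a whole-body chamber for 6 hours on each of 4 days, and the air rats had spent the same hours in filtered air. Total RNA from a piece of lung was depleted of ribosomal RNA and sequenced as stranded libraries, so levels are averages over whatever the piece held. Levels are given as CPM, which are counts scaled to the library's total with TMM factors, and changes as log2 day 27 over day 7.

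Fracking sand is mostly quartz, and inhaled crystalline silica is taken up by alveolar macrophages, which can release cytokines and chemokines that draw in neutrophils and lymphocytes. Where the response persists, fibroblasts lay down collagen. A rat lung also keeps growing for weeks after weaning, with dividing cells and matrix synthesis that slow as the animal matures, and many of its transcripts follow the time of day.

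The 12 dust libraries held 5090599 to 10962895 counts at day 27 and 6640183 to 11268738 counts at day 7. Lung epithelial transcripts were abundant in all of them. The 20 alveolar type 2 genes looked up, which include the surfactant proteins, summed to 23270 to 31640 CPM at day 27 and 27780 to 31740 CPM at day 7, and the 18 alveolar type 1 genes to 9814 to 12140 CPM at day 27 and 9876 to 11270 CPM at day 7. The secretory airway genes summed to 3802 to 5052 CPM at day 27 and 3030 to 4471 CPM at day 7, and the ciliated airway genes to 1017 to 1443 CPM at day 27 and 1204 to 1667 CPM at day 7.

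Of 15551 genes tested, 1762 (11.3%) differed between the dust groups at an adjusted p under 0.05. By day 27, 745 genes (4.79%) had risen and 1017 (6.54%) had fallen. The falls were many and small, with a median log2 change of -0.32, and 20 of them were larger than 2-fold. The rises had a median of 0.45, and 101 of them were larger than 2-fold and 65 larger than 4-fold. Among all genes tested the median log2 change was 0.01. The CPM ranges of the day 27 and day 7 rats did not overlap for 658 genes (4.23%), of which 468 (3.01%) were lower and 190 (1.22%) higher at day 27.

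The count leaned on single rats. It was 390 without day 7 rat 74, 718 without day 7 rat 79 and 787 without day 7 rat 77. It was 584 without day 27 rat 92, 914 without rat 91, 994 without rat 94 and 1121 without rat 96. The 2 mitochondrial ribosomal RNAs, Rnr1 and Rnr2, took 1.00% ± 0.461 of all counts at day 27 and 0.256% ± 0.140 at day 7 (SD, n = 6 each), and 1 day 27 rat lay within the day 7 range of 0.109% to 0.453% (two-sided exact permutation test, p = 0.00433, adjusted over 8 library measures 0.0173). With that share as a covariate, 18 genes passed, all of them lower at day 27. The erythroid, liver and cardiac transcripts described below also varied widely between rats. Of 117 called genes that were followed one by one, 13 missed the threshold with the cardiac score as a covariate and 29 with the erythroid score. With the liver score 56 missed it, with the mitochondrial rRNA share 99, and in limma voom 23. With a score over clock genes, described below, 72 missed it and 1 turned sign. These counts include genes that make up the covariate itself, such as Myh7 (cardiac), Ahsp (erythroid), Ttr (liver) and Rnr1 (rRNA).

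The genes with the smallest p all fell. Scn3b, an auxiliary subunit of voltage-gated sodium channels, was at 61.4, 80.3 and 105 CPM (lowest, median, highest) at day 27 and at 152, 187 and 221 CPM at day 7. Every day 27 rat lay below every day 7 rat. Its log2 change was -1.22 (SE 0.12, adjusted p = 3.44e-08), the smallest adjusted p of all genes. Pi15, a secreted peptidase inhibitor, had 4.63, 5.64 and 7.16 CPM at day 27 and 10.8, 13.04 and 16.1 CPM at day 7, again without overlap, for a change of -1.21 (SE 0.15, adjusted p = 5.79e-06). Mest, an imprinted gene of fetal and early postnatal growth, fell by 1.15 on the log2 scale, to 4.10 ± 1.02 CPM at day 27, against 9.13 ± 1.83 CPM at day 7 (adjusted p = 0.000472).

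The other genes with the smallest p are named here because of their values, outside the naming rule. Fstl1, a secreted follistatin-like glycoprotein made by mesenchymal cells, was at 239, 253 and 267 CPM at day 27 and at 351, 368 and 418 CPM at day 7. The 6 rats of each day lay close together and the gap between the days was wider than either range. The change was -0.57 (SE 0.06, adjusted p = 1.34e-07). Gpx7, a peroxidase of the endoplasmic reticulum that aids protein folding, fell by 0.73, with 26.1 ± 1.26 CPM at day 27 and 43.5 ± 2.68 CPM at day 7. Thbs2, a matricellular thrombospondin, fell by 0.96 and had 13.4 ± 1.70 CPM at day 27 and 26.2 ± 3.48 CPM at day 7. Emp1, an epithelial membrane protein gene, fell by 0.65, Ccdc80, which encodes a matrix protein, by 0.55, and the tetraspanin gene Cd81 by 0.40. All of these kept their call without each of the 12 rats in turn.

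The 18 genes that passed with the mitochondrial rRNA share in the fit were Scn3b, Pi15, Mest, Thbs2, Gpx7, Igfbp2, Mfap2, Tmem59l, Igsf10, Loxl2, Emp1, Fstl1, Ccdc80, Armcx2, Wnt5a, Nid1, Cd81 and Pcdh17. Several encode proteins of the matrix or of its signals. Nid1 is a basement membrane linker and had 290 ± 17.4 CPM at day 27 and 406 ± 50.4 CPM at day 7, a change of -0.48. Wnt5a is a Wnt ligand made by lung mesenchyme and had 40.5 ± 5.33 CPM at day 27 and 56.9 ± 5.13 CPM at day 7, a change of -0.49. Igfbp2, a carrier of insulin-like growth factors and in rodent lung a gene of mature alveolar type 1 cells, fell by 0.72, with 16.2 to 26.1 CPM at day 27 and 26.1 to 43.7 CPM at day 7. Of the 18, 15 also passed between the air rats of day 27 and day 7 in the fit without that covariate, and 12 in the fit with it. These genes were picked out by the same dust libraries, so their number is a description. Tmem59l had no firm call, since it was lost without any 1 of 9 of the 12 rats, with an adjusted p of up to 0.0814.

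**Figure D1:**
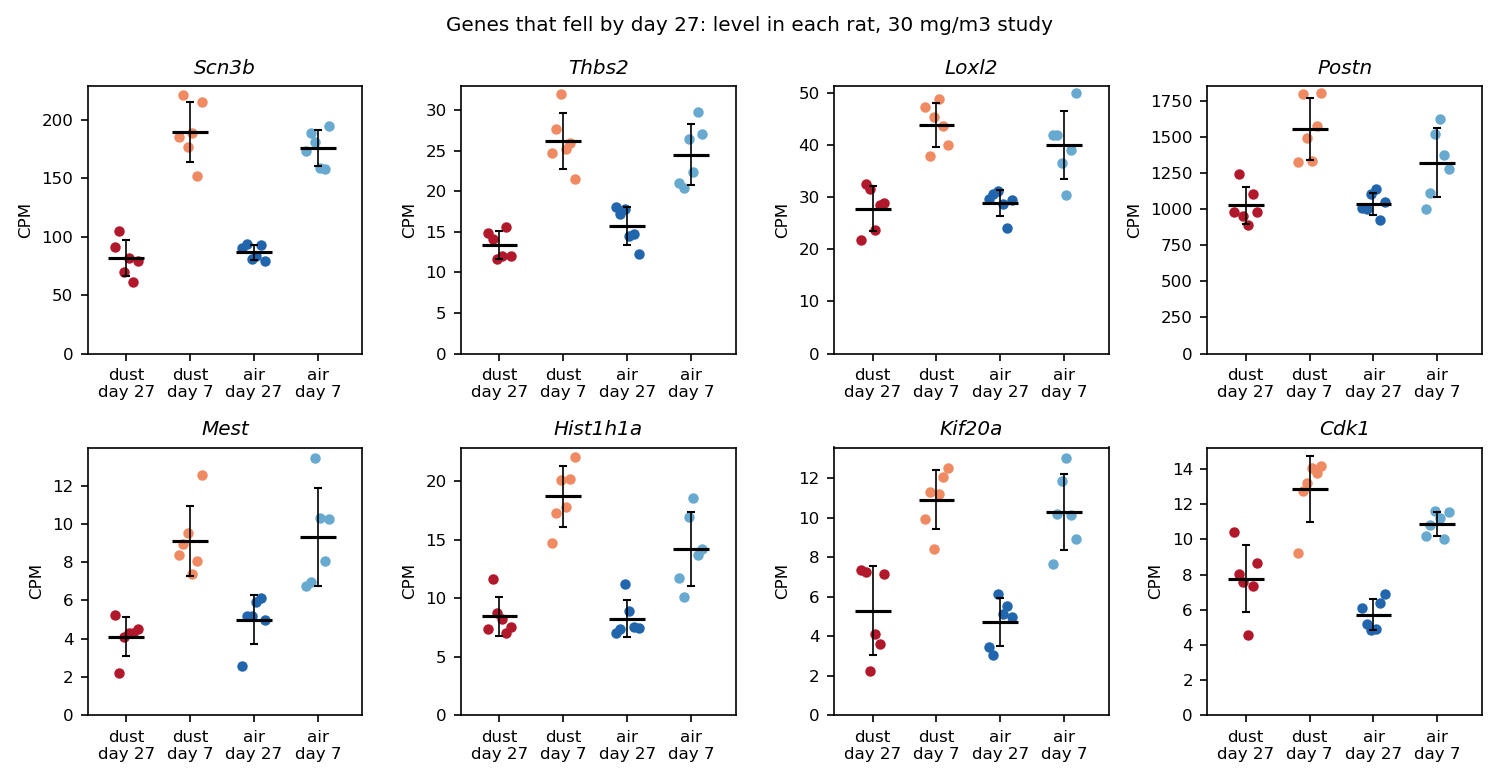
Level of 8 genes that fell by day 27, in CPM on a linear axis from 0, with 1 point per rat, the group mean as a line and the SD as whiskers, for dust and air rats of day 27 and day 7 (6 rats each). For all except Cdk1 every dust rat of day 27 lay below every dust rat of day 7, and group means were lower at day 27 in air rats too, with Scn3b at 86.6 CPM at day 27 and 176 CPM at day 7.

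Among the enzymes that process and crosslink collagen, 5 of 17 tested fell and 2 rose, with a list median of -0.23. Loxl2, a lysyl oxidase that crosslinks collagen and elastin, was at 21.9, 28.7 and 32.6 CPM at day 27 and at 37.96, 44.6 and 48.99 CPM at day 7, with no overlap. Its change of -0.66 (SE 0.11, adjusted p = 0.000472) was the largest of the list. P4ha1, the catalytic subunit of collagen prolyl hydroxylase, and Plod2, a collagen lysyl hydroxylase, both fell by 0.44. Pcolce, which enhances procollagen cleavage, and Ppib, a prolyl isomerase of the endoplasmic reticulum, were the other members that fell. Loxl4, another lysyl oxidase, and Bmp1, the procollagen C-proteinase, rose. Loxl4 changed by 0.48, to 34.8 ± 7.68 CPM at day 27, against 24.9 ± 4.32 CPM at day 7. The call on Loxl4 was lost without day 27 rats 91 or 94 or day 7 rats 74, 77 or 79, with an adjusted p of up to 0.0737.

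Of 17 collagens tested, Col3a1 and Col14a1 fell and none rose, with a list median of -0.04. Among all genes tested 11.3% passed and 6.54% fell. Col3a1, a fibrillar collagen, was at 1928, 2361 and 2669 CPM at day 27 and at 2725, 2934 and 3521 CPM at day 7, so the ranges came close without overlap, and the change was -0.39 (SE 0.10, adjusted p = 0.0178). Col14a1, a collagen on the surface of fibrils, changed by -0.34, a call lost without rats 91 or 92 of day 27 or rats 74, 77 or 79 of day 7 (adjusted p up to 0.087). Col1a1, the main fibrillar collagen chain and a panel gene, had 440 ± 92.5 CPM at day 27 and 489 ± 139 CPM at day 7, a log2 change of -0.15 that did not pass (adjusted p = 0.651).

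In the elastic fibre list 1 of 13 fell, with a median of -0.20. That gene was Mfap2, a microfibril protein, with 4.18, 6.05 and 10.5 CPM at day 27 and 8.49, 11.1 and 15.9 CPM at day 7. The ranges overlapped, and the change of -0.71 (SE 0.19, adjusted p = 0.0215) lost its call without day 27 rat 94 or day 7 rat 79 (adjusted p up to 0.0654). Elastin, Eln, had 456 ± 110 CPM at day 27 and 566 ± 224 CPM at day 7 and did not pass (adjusted p = 0.489). In the TGF-beta and fibrosis list 2 of 20 fell, Postn and Tgfb2, and none rose, a share near the 11.3% of all genes that passed. Postn, a matricellular protein of fibroblasts, was at 895, 984 and 1249 CPM at day 27 and at 1332, 1538 and 1811 CPM at day 7. Each day 27 rat lay below each day 7 rat, and the change was -0.60 (SE 0.11, adjusted p = 0.00179). Tgfb2, a TGF-beta ligand, changed by -0.22 and lost its call without any 1 of 10 of the 12 rats, with an adjusted p of up to 0.116.

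Fibroblast markers split, with 2 of 15 up and 2 down. The small leucine-rich proteoglycan Lum fell by 0.59, to 21.6 ± 4.27 CPM at day 27, against 32.7 ± 5.05 CPM at day 7, and the matrix protein Dpt by 0.50. Inmt, an indolethylamine N-methyltransferase abundant in lung stroma, rose by 0.87, to 102 ± 28.5 CPM at day 27, against 55.7 ± 17.4 CPM at day 7, and Pdgfra, a receptor on lipofibroblasts, by 0.25. The call on Lum was lost without rats 91, 92 or 74 and that on Dpt without rats 92, 74 or 77 (adjusted p up to 0.0799 and 0.0604). The call on Pdgfra was lost without any 1 of 8 rats (adjusted p up to 0.132). That on Inmt was kept without each rat, but was lost without the libraries above 100 CPM of Alb, described below (adjusted p = 0.0637). In whole tissue, fewer cells of a type and less RNA per cell cannot be told apart. The summed level of all fibroblast markers was 1583 to 1775 CPM at day 27 and 1595 to 1939 CPM at day 7.

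Of 11 genes tested from a list of imprinted and postnatal growth genes, Mest and Igf1 fell and none rose. Igf1, a growth factor made by lung fibroblasts and macrophages, was at 205, 214 and 235 CPM at day 27 and at 248, 298 and 344 CPM at day 7. The groups did not overlap, and the change was -0.44 (SE 0.09, adjusted p = 0.00579).

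Genes of cell division also fell. Of 30 mitosis and cell cycle genes tested, 11 fell and none rose, 27 had a change below 0, and the list median was -0.45. Kif20a, a kinesin of the dividing cell's midzone, was at 2.23, 5.64 and 7.36 CPM at day 27 and at 8.43, 11.3 and 12.5 CPM at day 7. All day 27 rats lay below all day 7 rats, and the change was -1.03 (SE 0.24, adjusted p = 0.00871). Pbk, a mitotic kinase, fell by 1.28 and had 1.67 ± 0.701 CPM at day 27 and 4.09 ± 0.799 CPM at day 7. Cdk1, the kinase that drives entry into mitosis, fell by 0.71, with 7.77 ± 1.91 CPM at day 27 and 12.9 ± 1.86 CPM at day 7, and its cyclin partner Ccnb1 fell by 0.80. Outside the list, the largest falls included Fam64a (-1.81), Anln (-1.08), which encodes a scaffold of the cytokinetic ring, and the repressor E2f7 (-1.13). The proliferation marker Mki67 had 42.0 ± 12.5 CPM at day 27 and 54.3 ± 9.20 CPM at day 7 and did not pass (adjusted p = 0.184).

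Without 1 rat at a time, 6 to 14 of the mitosis genes fell, with the low of 6 reached without day 27 rat 92 or without day 7 rat 79. Ccnb1 missed the threshold without day 7 rat 79 (adjusted p = 0.0509). Ccnb2 missed it without any 1 of 6 rats, with an adjusted p of up to 0.0837. With the mitochondrial rRNA share in the fit, 0 of the 30 passed. Over all other settings, that fit included, Kif20a changed by -1.16 to -0.49, Pbk by -1.51 to -0.78, Cdk1 by -0.88 to -0.56 and Ccnb1 by -0.88 to -0.43. The share itself differed between the days, so a call lost in that fit does not show that the change was absent.

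Mitotic genes share promoter elements, and 3 promoters of genes that fell here are printed as examples. CCAAT is the box read by NF-Y, and TTTGAA is the core of the cell cycle homology region through which mitotic genes are held silent outside the late cell cycle. Capitals mark CCAAT or its complement ATTGG, and TTTGAA or its complement TTCAAA. The windows run from 250 bases before to 50 after the annotated start, in RefSeq's GRCr8 assembly, read 5′ to 3′ on the gene's strand.

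Ccnb2, chr8:79981609-79981908, minus strand: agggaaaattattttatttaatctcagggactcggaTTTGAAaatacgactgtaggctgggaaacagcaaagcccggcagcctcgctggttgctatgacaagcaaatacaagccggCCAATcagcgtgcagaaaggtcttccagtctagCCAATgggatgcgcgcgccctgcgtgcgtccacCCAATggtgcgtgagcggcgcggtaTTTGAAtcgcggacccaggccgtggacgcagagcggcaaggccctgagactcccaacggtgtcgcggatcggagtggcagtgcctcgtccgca
Cdk1, chr20:19265043-19265342, plus strand: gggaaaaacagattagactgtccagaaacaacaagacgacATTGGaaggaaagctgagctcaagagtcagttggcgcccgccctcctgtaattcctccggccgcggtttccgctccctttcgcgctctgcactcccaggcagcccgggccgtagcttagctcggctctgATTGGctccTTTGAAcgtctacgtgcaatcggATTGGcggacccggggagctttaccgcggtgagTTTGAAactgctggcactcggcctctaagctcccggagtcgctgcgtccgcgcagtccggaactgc
Kif20a, chr18:26504172-26504471, plus strand: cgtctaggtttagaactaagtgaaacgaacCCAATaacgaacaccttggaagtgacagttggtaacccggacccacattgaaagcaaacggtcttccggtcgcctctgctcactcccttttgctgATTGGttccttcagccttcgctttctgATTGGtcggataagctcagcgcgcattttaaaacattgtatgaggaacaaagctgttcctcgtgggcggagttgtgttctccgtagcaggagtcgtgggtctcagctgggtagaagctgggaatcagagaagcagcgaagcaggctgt

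The Ccnb2 and Cdk1 windows each held 3 CCAAT boxes and 2 TTTGAA elements, and the Kif20a window held 3 CCAAT boxes and no TTTGAA. Of the 8 mitosis genes that fell and had a promoter, 7 held CCAAT and 5 held both motifs. The window of Bub1, which also fell, held neither. Both motifs stood together in 12 of the 23 mitosis list members with a promoter in the RefSeq table (52.2%), against 529 of 10471 tested genes with one (5.05%). CCAAT alone was in 69.6% of those mitosis promoters and in 37.5% of the promoters of tested genes, and TTTGAA in 60.9% and 12.2%. Among the 21 DNA replication genes with a promoter, 14 (66.7%) held CCAAT and 1 (4.76%) TTTGAA. A match is a stretch of letters and not a measured site, and the list was put together for its function, so the shares describe it and do not bear on the change by day 27.

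Fewer DNA replication genes passed. Of 26 tested, 3 fell and none rose, with a median of -0.13. This share lay near the 11.3% of all genes tested that passed, of which 6.54% fell and 4.79% rose. Mcm4, a subunit of the replicative helicase, was at 26.2, 28.97 and 34.8 CPM at day 27 and at 38.3, 41.3 and 49.9 CPM at day 7, with no overlap and a change of -0.49 (SE 0.11, adjusted p = 0.0086). Pcna, the sliding clamp, fell by 0.37 and Rrm1, the large subunit of ribonucleotide reductase, by 0.34. Pcna lost its call without any 1 of 6 rats (adjusted p up to 0.0928) and Rrm1 without day 7 rat 74 (0.0514).

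Clustered histone genes, whose transcripts are made during DNA synthesis, fell in 8 of 13 tested, with a median of -0.555 and none up. Hist1h1a, a linker histone, was at 7.03, 7.89 and 11.7 CPM at day 27 and at 14.8, 18.96 and 22.1 CPM at day 7. No day 27 rat reached the lowest day 7 rat, and the change was -1.14 (SE 0.18, adjusted p = 0.000343). Hist1h3a, a core histone, fell by 0.94, to 15.4 ± 2.41 CPM at day 27, against 29.7 ± 3.21 CPM at day 7, and Hist2h4 by 0.68. The count was 6 to 8 without 1 rat at a time and 0 with the mitochondrial rRNA share in the fit. Over all other settings, that fit included, Hist1h1a changed by -1.26 to -0.96, Hist1h3a by -1.02 to -0.64 and Hist2h4 by -0.75 to -0.57. Hist1h2bd, another list member, changed by -0.98 to -0.20. Clustered histones are near-identical copies, so reads may be split between them and single members are uncertain.

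Among the other large falls, those of Selenbp1 and Cd151 rested on a few day 7 rats. Selenbp1, a selenium-binding protein gene, had 0.610 to 1.72 CPM in all 6 day 27 rats. At day 7 it had 24.8, 21.1 and 19.1 CPM in rats 74, 75 and 77 and 0.885 to 1.07 CPM in rats 73, 76 and 79. The ranges overlapped, and the change of -3.32 (SE 0.83, adjusted p = 0.0152), the largest fall, was lost without rat 74 (adjusted p = 0.0533). Cd151, a tetraspanin gene, had 1.70 to 3.85 CPM at day 27, and 17.2 and 16.6 CPM in day 7 rats 74 and 77 against 1.33 to 4.13 CPM in the other day 7 rats. Its change of -1.67 lost its call without any 1 of 7 rats (adjusted p up to 0.127). Tnfaip6, a hyaluronan-binding protein induced by inflammation, had 0.458, 0.830 and 1.43 CPM at day 27 and 1.44, 2.07 and 3.53 CPM at day 7. The ranges met without overlap, and its change of -1.25 (SE 0.29, adjusted p = 0.0086) was kept without each rat in turn. It missed the threshold without the libraries above 100 CPM of Alb, described below (adjusted p = 0.0593).

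**Figure D2:**
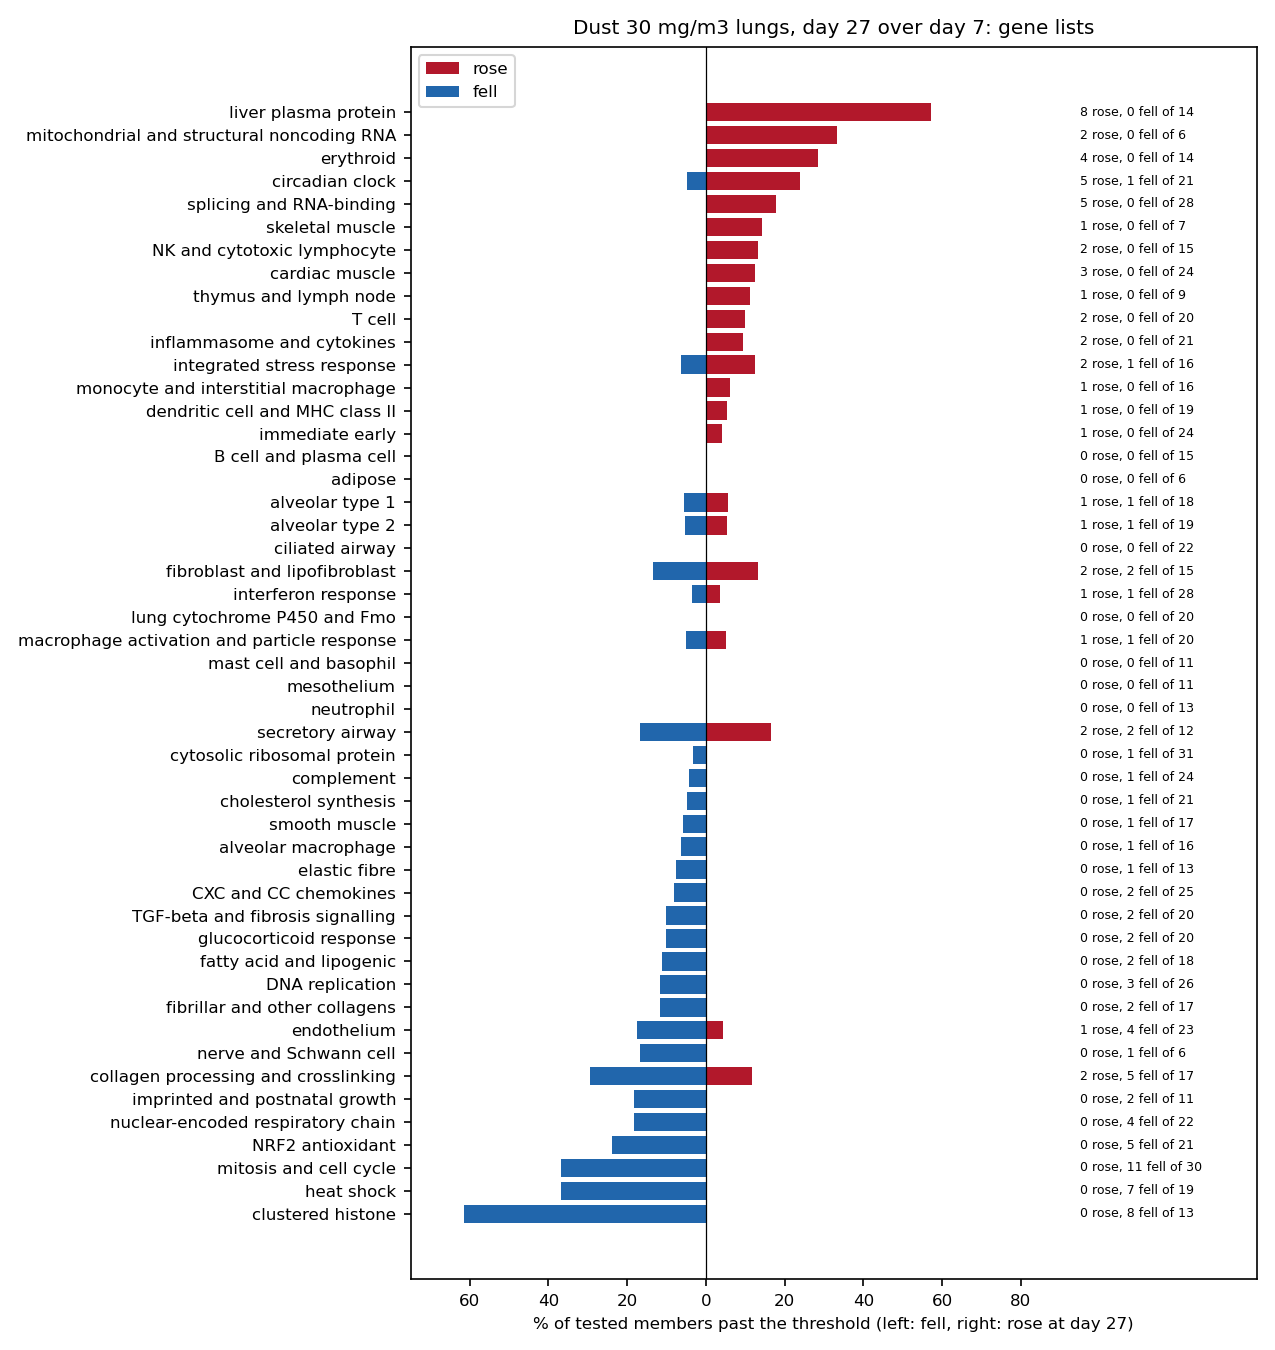
Share of tested members of each gene list with at least 5 tested members that rose (right, red) or fell (left, blue) at an adjusted p under 0.05 in dust lungs at day 27 over day 7, in percent, with the counts written at the right. Clustered histone, heat shock and mitosis genes had the largest shares that fell, and liver plasma protein genes the largest share that rose, beside 4.79% of all genes that rose and 6.54% that fell.

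The rises were led by transcripts of red cells, liver and heart muscle, at levels that differed many-fold between the day 27 rats. Among 14 erythroid genes tested, 4 rose and none fell, with a median of 2.29. Alas2, the first enzyme of heme synthesis in red cell precursors, was at 69.9, 500 and 7084 CPM at day 27 and at 75.999, 180 and 298 CPM at day 7. Day 27 rat 89 was highest and rat 91 was below every day 7 rat. The change was 3.29 (SE 1.01, adjusted p = 0.037). Ahsp, the chaperone of alpha-globin, rose by 3.02.

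From highest to lowest, Alas2 ranked the 6 day 27 rats as 89, 94, 96, 92, 90 and 91. Rsad2, an interferon-induced antiviral gene also known as viperin, ranked them in the same order, with 2074 CPM in rat 89, 609 CPM in rat 94 and 48.3 CPM in rat 91. At day 7 it had 53.9 to 118 CPM, and its change of 2.78 (SE 0.86, adjusted p = 0.0371) was the only rise among 28 interferon response genes, of which Ifi27 fell (-0.37, adjusted p = 0.045). Slfn14, a Schlafen endoribonuclease of platelet and red cell precursors, rose by 3.49 and gave the same order once more. The air rats of day 27 spanned 230 to 4269 CPM of Alas2 and 85.2 to 1248 CPM of Rsad2. The calls on Alas2, Ahsp, Rsad2 and Slfn14 were each lost without any 1 of 7 or 8 of the 12 rats, rat 89 among them, with adjusted p of up to 0.24, and so was that on Ifi27 (up to 0.12). Without any 1 of rats 89, 92, 94, 74, 76, 77 or 79 none of the erythroid genes rose, without rat 73 1 did, and without rat 89 1 fell. The 15 erythroid genes in the table summed to 1510 to 17910 CPM at day 27 and 2970 to 4236 CPM at day 7.

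Transcripts of plasma proteins, which hepatocytes make, rose in 8 of 14 tested, with a median of 2.57 and none down. Alb, albumin, was at 11.8, 49.6 and 241 CPM at day 27 and at 7.10, 9.91 and 12.4 CPM at day 7. Rats 96 and 91 were highest, and only rat 90 lay within the day 7 range. The change was 3.20 (SE 0.78, adjusted p = 0.0138). Ttr, transthyretin, a carrier of thyroid hormone and retinol, had 0.991 to 17.2 CPM at day 27 and 0.222 to 0.977 CPM at day 7, for a change of 3.31 (SE 0.79, adjusted p = 0.0117). The calls on Alb and Ttr were kept without each rat in turn, and Ttr missed the threshold without the libraries above 100 CPM of Alb (adjusted p = 0.0512). Fga, a fibrinogen chain, rose by 3.23, and Alb, Ttr and Fga all ranked the day 27 rats as 96, 91, 89, 94, 92 and 90. The largest rises also included Fabp1, the fatty acid-binding protein of liver (3.56), and Mug1 and A1i3, plasma proteinase inhibitors (3.27 and 3.22).

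Without day 27 rat 96, 2 of the plasma protein genes rose, without rat 91 or day 7 rat 74 4 did, and without day 7 rat 77 or 79 5 did. Fga was lost without rat 96 (adjusted p = 0.0587), and Fabp1, Mug1 and A1i3 without any 1 of 4 to 6 rats (adjusted p up to 0.106). Leaving out the 3 libraries with over 100 CPM of Alb, day 27 dust rats 91 and 96 and air day 7 rat 65, took the number of genes called from 1762 to 233. Of the 117 genes followed one by one, 69 then missed the threshold. Among them were Cxcl12, Cdk1 and Col3a1 (adjusted p = 0.0576, 0.0623 and 0.0808), which had been kept without each rat in turn. The 16 plasma protein genes looked up summed to 324 to 786 CPM at day 27 and 315 to 406 CPM at day 7, and the most abundant lung epithelial transcript, Sftpc, was at 7407 to 10984 CPM in the same day 27 rats.

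Heart muscle genes varied in the same way. Of 24 tested, 3 rose and none fell, all 24 had a change above 0, and the median was 1.12. Myh7, the slow cardiac myosin heavy chain, had 26.8, 11.0 and 8.48 CPM in day 27 rats 94, 89 and 96 and 0.153 to 2.095 CPM in the other day 27 rats, against 0 to 0.666 CPM at day 7. Its fitted change of 5.27 (SE 1.63, adjusted p = 0.0371) was the largest rise, and rested on day 7 levels that were 0 in 3 of 6 rats. Myl2, the ventricular myosin light chain, was at 0 to 6.32 CPM at day 27 and 0 to 0.115 CPM at day 7, too few counts for a fold. Ldb3, a Z-disc protein gene, rose by 0.87, to 10.8 ± 1.52 CPM at day 27, against 5.89 ± 1.90 CPM at day 7. Myh6, the atrial myosin heavy chain, had 16.9, 108 and 154 CPM at day 27 and 8.97, 31.3 and 74.3 CPM at day 7 and did not pass (adjusted p = 0.108). Without day 7 rat 74 or 79 none of the 24 passed, and without any 1 of rats 89, 94, 96, 76 or 77 1 did. The heart muscle genes summed to 202 to 803 CPM at day 27 and 172 to 448 CPM at day 7, against 635 to 2256 CPM in air rats at day 7, and Tcap, a Z-disc gene, was at 0 in all 12 dust rats.

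**Figure D3:**
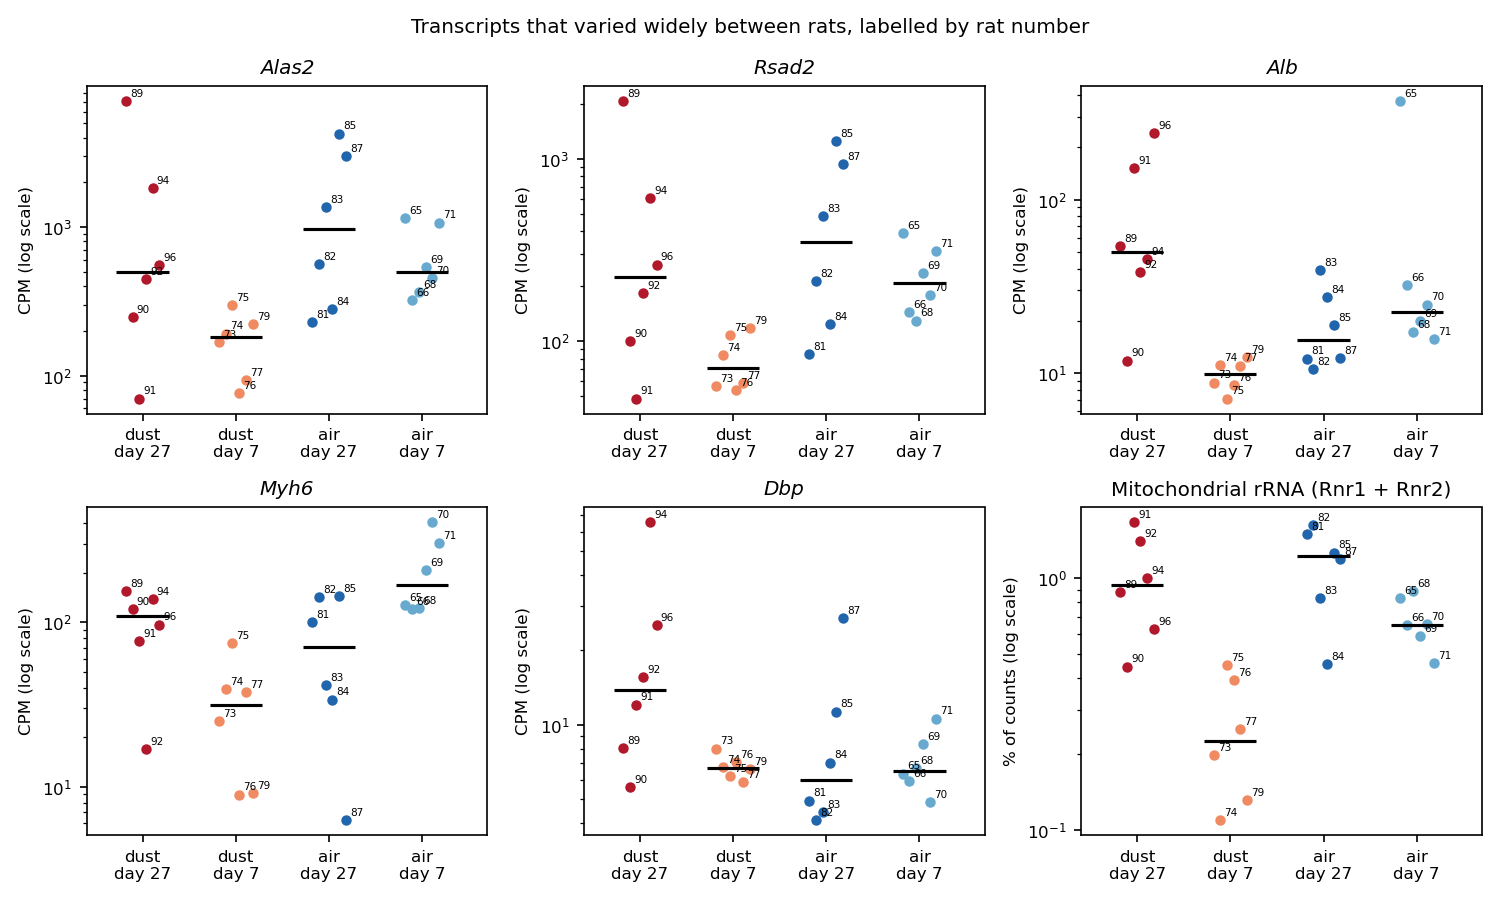
Level of Alas2, Rsad2, Alb, Myh6 and Dbp in CPM and share of counts on mitochondrial rRNA in percent, on log axes, with 1 point per rat labelled by its number and the group median as a line, for dust and air rats of day 27 and day 7. Dust rat 89 was highest for Alas2 and Rsad2 (7084 and 2074 CPM), dust rats 96 and 91 for Alb within day 27, and air rats of day 27 spanned 230 to 4269 CPM of Alas2 and 85.2 to 1248 CPM of Rsad2.

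Airway secretory genes split, with 2 of 12 up and 2 down. Muc5b, the main airway mucin of submucosal glands and secretory cells, had 80.9, 68.3 and 41.8 CPM in day 27 rats 96, 94 and 92, 13.1, 8.89 and 7.82 CPM in rats 91, 89 and 90, and 4.13 to 9.65 CPM at day 7. The rise thus rested on 3 of 6 day 27 rats. The change was 2.30 (SE 0.58, adjusted p = 0.0161). The call was kept without each rat in turn, but it was lost in limma voom (adjusted p = 0.0851), without the 3 libraries highest in Alb (0.0638), and with the mitochondrial rRNA share, the clock score or the liver score as a covariate. Bpifa1, a secreted defence protein of the large airways, was also highest in rats 94, 96 and 92, at 47.2, 13.95 and 12.5 CPM, with 0.669 to 1.57 CPM in the other day 27 rats and 0.213 to 3.39 CPM at day 7. Its change of 3.31 lost its call without any 1 of 6 rats (adjusted p up to 0.145). Scgb3a2, a secretoglobin of club cells, fell by 0.80, to 104 ± 20.8 CPM at day 27, against 181 ± 49.6 CPM at day 7, and Lypd2 by 0.78. Scgb3a2 lost its call without any 1 of 6 rats (adjusted p up to 0.119) and Lypd2 without day 7 rat 74 (0.063). None of 22 ciliated cell genes passed, with a median of -0.20.

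In the alveolar type 2 list 1 of 19 rose and 1 fell, and in the type 1 list 1 of 18 rose and 1 fell. Both shares lay near the 11.3% of all genes that passed. Sftpc, surfactant protein C, had 9046 ± 1199 CPM at day 27 and 11004 ± 600 CPM at day 7, a change of -0.28 (SE 0.09, adjusted p = 0.0433). Nkx2-1, the transcription factor of lung epithelium, changed by 0.33, and Rtkn2, a type 1 cell gene, by 0.27. The calls on Sftpc, Nkx2-1 and Rtkn2 were each lost without any 1 of 7 to 9 rats (adjusted p up to 0.132). Igfbp2, given above, was the type 1 gene that fell and was kept.

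Endothelial genes moved both ways, with 4 of 23 down and 1 up. Emcn, a sialomucin of capillary and venous endothelium, was at 112, 137 and 161 CPM at day 27 and at 164, 186 and 239 CPM at day 7, without overlap, for a change of -0.56 (SE 0.12, adjusted p = 0.00489). Vcam1, a leukocyte adhesion molecule, fell by 0.39, the tight junction gene Cldn5 by 0.40, and Car4, a carbonic anhydrase of capillaries, also fell. Vwf, von Willebrand factor, rose by 0.61, to 1000 ± 208 CPM at day 27, against 655 ± 186 CPM at day 7. The calls on Vcam1 and Cldn5 were lost without day 7 rat 74, that on Vcam1 also without day 27 rat 92 and that on Cldn5 also without day 27 rat 94 (adjusted p up to 0.0633 and 0.0934), and that on Vwf without any 1 of 6 (up to 0.0856).

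A few lymphocyte genes rose. Among all genes tested 4.79% rose, and 7961 of 15551 had a change above 0. Members of a list were measured in the same rats, so their signs are not separate support. Of 20 T cell genes tested 2 rose, 18 had a change above 0, and the median was 0.40. Of 15 genes of natural killer and cytotoxic lymphocytes 2 rose, all 15 were above 0, and the median was 0.29. Eomes, a transcription factor of both, was at 3.58, 4.38 and 5.35 CPM at day 27 and at 1.71, 2.02 and 3.01 CPM at day 7, with no overlap and a change of 1.01 (SE 0.23, adjusted p = 0.00871). Tbx21, which encodes T-bet, rose by 0.58. Themis, a gene of T cell selection, rose by 0.72. Without 1 rat at a time, 0 to 2 of the T cell genes and 1 to 3 of the NK genes rose. None of the T cell genes rose without any 1 of rats 89, 92, 94, 74 or 77 and 1 did without any 1 of rats 91, 96, 75, 76 or 79, and 1 NK gene rose without any 1 of rats 89, 92, 74, 77 or 79. In air rats 14 of the 20 T cell genes and 11 of the 15 NK genes had a change above 0, and none passed. Eomes was kept without each rat in turn. Tbx21 was lost without any 1 of 5 rats and Themis without any 1 of 9 (adjusted p up to 0.0832 and 0.108).

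The summed T cell level was 285 to 398 CPM at day 27 and 246 to 306 CPM at day 7. Ciita, the switch for MHC class II genes, had 37.4, 39.4 and 44.7 CPM at day 27 and 22.8, 27.1 and 33.8 CPM at day 7, so every day 27 rat was above every day 7 rat. It rose by 0.54 (SE 0.12, adjusted p = 0.00712), the 1 call among 19 dendritic cell and MHC class II genes. None of 15 B cell and plasma cell genes passed, nor of 11 mast cell and basophil genes, 3 eosinophil genes or 13 neutrophil genes.

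The inflammatory and particle-response lists had medians of -0.067 to 0.107, and calls in them are set beside the 11.3% of all genes that passed. In the chemokine list 2 of 25 fell and none rose. Cxcl12, a stromal chemokine that holds leukocytes and progenitors in tissue, was at 105, 117 and 145 CPM at day 27 and at 144, 185 and 207 CPM at day 7, for a change of -0.57 (SE 0.13, adjusted p = 0.00895). The ranges overlapped by a small margin. Cxcl16 changed by -0.22 and lost its call without any 1 of 6 rats (adjusted p up to 0.0824). Among 21 inflammasome and cytokine genes, Csf1, the macrophage growth factor, rose by 0.39 and Tnfaip3, the NF-kB inhibitor A20, by 0.25. Tnfaip3 had 38.4 to 45.9 CPM at day 27 and 35.1 to 36.6 CPM at day 7 and was kept without each rat. It missed the threshold without the libraries above 100 CPM of Alb (adjusted p = 0.0514). Csf1 was lost without any 1 of 6 rats (adjusted p up to 0.105).

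Of 20 genes of macrophage activation and particle response, the lysosomal protease Ctsl fell by 0.48 and the apolipoprotein Apoc1 rose by 1.66. Ctsl had 291 ± 18.1 CPM at day 27 and 406 ± 35.1 CPM at day 7, without overlap. Apoc1 is also made by hepatocytes, and its call was lost without any 1 of 7 rats (adjusted p up to 0.12). The panel of dust-response genes did not pass. Ccl2, a monocyte chemokine, had 4.12 ± 0.727 CPM at day 27 and 4.37 ± 1.18 CPM at day 7. Cxcl1, a neutrophil chemokine, had 17.7 ± 4.70 CPM at day 27 and 17.5 ± 4.52 CPM at day 7. Mmp12, the macrophage elastase, had 3.52 ± 0.767 CPM at day 27 and 3.67 ± 1.43 CPM at day 7.

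Lcn2, an iron-trapping protein of injured epithelium and neutrophils, had 113, 124 and 208 CPM at day 27 and 52.6, 94.2 and 183 CPM at day 7, and its log2 change of 0.50 (SE 0.31) gave an adjusted p of 0.269. Spp1, osteopontin, had 1.53 to 33.9 CPM at day 27 and 6.08 to 19.96 CPM at day 7, with the highest value in day 27 rat 90. Hmox1, heme oxygenase, had 34.1 ± 8.14 CPM at day 27 and 31.8 ± 5.52 CPM at day 7. The adjusted p of Ccl2, Cxcl1, Mmp12, Spp1 and Hmox1 lay between 0.631 and 0.989. A p that misses the threshold does not show that these levels were equal.

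Some heat shock and antioxidant genes fell. Of 19 heat shock genes 7 fell and none rose, with a median of -0.195. Hspa5, the main chaperone of the endoplasmic reticulum, was at 446, 470 and 498 CPM at day 27 and at 572, 611 and 728 CPM at day 7, without overlap, for a change of -0.42 (SE 0.10, adjusted p = 0.0088). Hspa8, the constitutive cytosolic chaperone, changed by -0.44 and lost its call without any 1 of 10 rats (adjusted p up to 0.14). The other 5 were Dnaja1, Hspe1, Hspa4, Ahsa1 and Fkbp4, and the count of 7 was 1 to 8 without 1 rat at a time, lowest without day 7 rat 74. It was 2 without any 1 of rats 91, 92, 94, 96 or 77, 3 without rat 79 and 4 without rat 73.

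Of 21 NRF2 antioxidant genes 5 fell and none rose, namely Nqo1, Gsta1, Gpx2, Prdx1 and Txn1. Gsta1, a glutathione transferase, fell by 0.62, to 55.7 ± 12.3 CPM at day 27, against 85.8 ± 20.5 CPM at day 7, and Nqo1, a quinone reductase, by 0.32. Gsta1 was lost without 3 rats and Nqo1 without any 1 of 7 (adjusted p up to 0.0718 and 0.146), and without day 27 rat 92 or day 7 rat 74 none of the 21 passed. Without any 1 of rats 91, 94, 77 or 79 1 did, without rat 96 2 did, and without rat 89 or 76 3 did. Of 22 nuclear-encoded respiratory chain genes 4 fell, 21 had a change below 0, and the median was -0.21. That count was 0 without day 7 rat 74 or 79, 1 without rat 92 or 77, 2 without rat 91 and up to 7 without rat 90 or 75.

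Clock genes differed between the days. Of 21 tested, 5 rose and 1 fell. Nr1d1, the repressor REV-ERB-alpha, was at 28.7, 61.3 and 122 CPM at day 27 and at 4.89, 13.1 and 16.9 CPM at day 7. The groups did not overlap, and the change was 2.42 (SE 0.70, adjusted p = 0.029). Per3, a period gene, had 20.04, 31.6 and 55.4 CPM at day 27 and 13.2, 14.8 and 17.3 CPM at day 7, also without overlap, for a change of 1.2045 (SE 0.29, adjusted p = 0.0133). Dbp, an output factor of the clock, had 65.3 CPM in rat 94 and 25.3 CPM in rat 96 and 5.62 to 15.6 CPM in the other day 27 rats, against 5.85 to 7.997 CPM at day 7, for a change of 1.68. Cry1, a repressor, fell by 0.85, to 11.3 ± 2.50 CPM at day 27, against 20.4 ± 6.51 CPM at day 7. Cry2 and Bhlhe41 rose. Arntl, which encodes BMAL1, had 52.7 ± 14.5 CPM at day 27 and 70.3 ± 4.44 CPM at day 7 and did not pass (adjusted p = 0.0753).

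Per3 was kept without each rat, but missed the threshold without the libraries above 100 CPM of Alb (adjusted p = 0.052). Nr1d1, Dbp and Cry1 were lost without any 1 of 4 to 6 rats, with rats 92, 94 and 74 among them each time (adjusted p up to 0.158). The number of clock genes that rose was 1 without any 1 of rats 94, 74, 77 or 79, 2 without rat 92 and 3 without rat 91 or 96. A clock score took Dbp, Tef, Nr1d2 and Per3 as positive and Arntl, Npas2 and Cry1 as negative members. The score was higher at day 27 than at day 7 in every rat (two-sided exact permutation test, p = 0.00216, the smallest this design allows, adjusted over 8 measures 0.0173). The hour at which the rats were killed is not given in the sources used here, and its part in these changes was not tested. With the clock score as a covariate 221 genes passed in place of 1762. The slope on the score in that fit comes from variation within the groups. Because the score did not overlap between the dust days, the fit extends that slope across the gap between them. A call lost in it therefore does not show that the change was absent. Dbp changed by -0.11 in it, but Dbp is a member of the score, so this value is built in.

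Glucocorticoid targets included 2 of 20 that fell, Tsc22d3 and Sgk1, a share near the 11.3% of all genes that passed. Tsc22d3, which encodes the mediator GILZ, had 154 ± 14.7 CPM at day 27 and 225 ± 55.9 CPM at day 7, a change of -0.55 that was lost without any 1 of 6 rats (adjusted p up to 0.11). Among RNA-binding and splicing genes 5 of 28 rose and none fell, and the count was 3 without day 7 rat 74 and 4 to 7 without each other rat. Srsf2, one of the 5, was lost without any 1 of 7 rats (adjusted p up to 0.129). Cirbp, a cold-inducible RNA-binding protein, was at 92.8, 96.8 and 111 CPM at day 27 and at 68.1, 80.8 and 87.4 CPM at day 7, without overlap, for a change of 0.35 (SE 0.08, adjusted p = 0.00612). Luc7l2, a splicing factor of the U1 complex, and Hnrnpdl rose by 0.33 and 0.28 and were kept without each rat. Hnrnpdl missed the threshold without the libraries above 100 CPM of Alb (adjusted p = 0.0737). The rises with the smallest p in the whole table, named because of their values, were Khnyn (0.31, adjusted p = 0.00303) and Unkl (0.30, adjusted p = 0.00351), small changes in which every day 27 rat lay above every day 7 rat.

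Calls in the other lists are set beside the 4.79% of all genes that rose and the 6.54% that fell. One of 16 alveolar macrophage genes, Car4, fell, and 1 of 16 monocyte and interstitial macrophage genes, Nr4a1, rose, which was also the 1 rise among 24 immediate early genes. In the integrated stress list 2 of 16 rose, among them Trib3, a pseudokinase, and 1 fell. The smooth muscle gene Tagln was the 1 of 17 that fell, Pmp22 the 1 of 6 nerve genes that fell, Ryr1 the 1 of 7 skeletal muscle genes that rose and Themis the 1 of 9 thymus genes that rose. Of these calls, Tagln was lost without any 1 of 9 rats (adjusted p up to 0.167), Nr4a1 without any 1 of 8 (0.118), Themis without any 1 of 9 (0.108), Trib3 without any 1 of 5 (0.0786) and Ryr1 without day 7 rat 74 (0.0517). One of 21 cholesterol synthesis genes, 2 of 18 fatty acid genes and 1 of 31 ribosomal protein genes fell. None of 20 cytochrome P450 and Fmo genes or 6 adipose genes passed. None of 11 mesothelial genes passed either, though all 11 had a change below 0, with a median of -0.41.

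The same interval in air rats gave fewer calls and mostly the same direction. Between air rats of day 27 and day 7, 206 genes (1.32%) passed, 40 higher (0.257%) and 166 lower (1.07%). Of the 1762 genes called in dust rats, 1649 (93.6%) had the same sign in air rats, and of all genes tested 74.8% did. Of the 1017 that fell in dust rats, 993 (97.6%) had a fall in air rats too, with a median of -0.32 in dust and -0.20 in air. Of the 745 that rose, 656 (88.1%) had a rise in air, with a median of 0.45 in dust and 0.22 in air. In both sets of rats 145 genes passed, which is 70.4% of the air calls, and 144 of them had the same direction, which is 8.17% of the dust calls. The dust and air rats are different animals, so these comparisons share no library. The genes were picked by their dust values, which makes the dust medians run large. The medians therefore do not show a larger change in dust than in air.

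Several genes described above fell in air rats too. Scn3b had 86.6 ± 6.26 CPM in air rats at day 27 and 176 ± 15.4 CPM in air rats at day 7, a change of -1.02 (SE 0.12, adjusted p = 2.64e-06). Fstl1 changed by -0.44 and Emp1 by -0.64 in air (adjusted p = 7.03e-05 each). Of the 30 mitosis genes 7 fell in air, with a median of -0.54, and of the 13 histone genes 6 fell. Col3a1 changed by -0.39 in dust and by -0.39 in air, and Igf1 by -0.44 in dust and by -0.50 in air. Kif20a changed by -1.03 in dust and -1.14 in air. Ptpru, a receptor phosphatase, had the largest rise in dust among genes that rose in both, with 0.81 in dust and 1.01 in air.

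**Figure D4:**
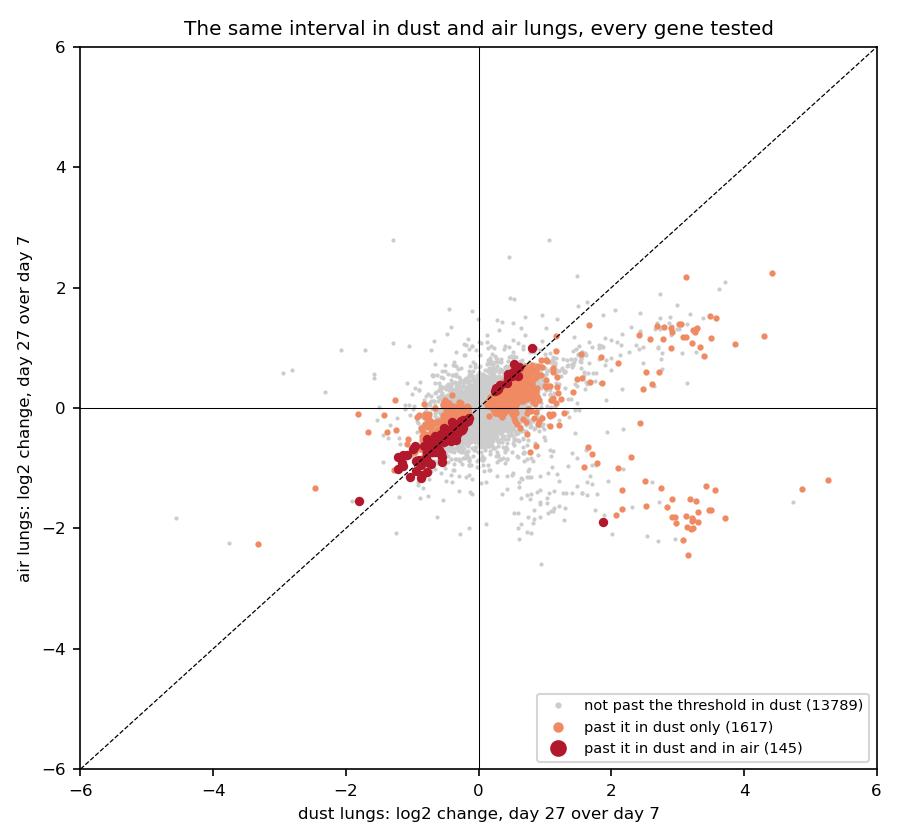
Log2 change from day 7 to day 27 for every gene tested, in dust rats on the horizontal and in air rats on the vertical axis, with the line of equal change dashed; 1 gene lies outside the axes. The 145 genes past the threshold in both lie along the diagonal with 1 exception at lower right, and a further band at lower right holds liver and heart muscle genes that were higher in dust and lower in air at day 27.

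The difference between the dust change and the air change was tested gene by gene. Of 15551 genes 0 passed with edgeR's quasi-likelihood test (0%). Without adjustment 668 (4.3%) lay under 0.05, and 50 passed in DESeq2 and 0 in limma voom. The 8 genes with the smallest p were Fsd2, Ttr, Alb, LOC103691832, Ldb3, Hrg, Apob and Slc15a2, at adjusted p of 0.107 to 0.114. The first 7 are plasma protein or striated muscle genes, or a locus without a name, that were higher at day 27 in dust and lower at day 27 in air. Alb changed by 3.20 in dust and by -2.002 in air, where day 7 rat 65 had 371 CPM and the other air day 7 rats 15.7 to 32.2 CPM, and the difference was 5.198 (95% interval 3.03 to 7.37). LOC103691832 was the 1 gene past the threshold in both with opposite signs, at 1.87 in dust and -1.89 in air. Its call in dust was lost without any 1 of 11 rats (adjusted p up to 0.0992).

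Slc15a2, a peptide transporter, was the exception to that pattern. It had 21.3 ± 2.88 CPM in dust rats at day 27 and 30.2 ± 3.96 CPM in dust rats at day 7, and 27.8 ± 2.36 CPM in air rats at day 27 and 25.4 ± 2.50 CPM in air rats at day 7. The dust change was -0.51 (adjusted p = 0.00328), the air change 0.13, and the difference -0.64 (95% interval -0.92 to -0.35, adjusted p = 0.114). For Scn3b the difference was -0.20 (95% interval -0.53 to 0.13), for Postn -0.25 (-0.56 to 0.06) and for Eomes 0.67 (0.02 to 1.31), each with an adjusted p of 1. So the larger number of calls in dust rats is not shown to be a larger change. The mitochondrial rRNA share was 1.14% ± 0.433 in air rats at day 27 and 0.678% ± 0.157 in air rats at day 7, a smaller gap than in dust rats.

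Scn4a and Myom1 were among the largest changes in air rats. Scn4a, a sodium channel of skeletal muscle, was at 4.73 ± 1.34 CPM at day 27 and 2.33 ± 0.486 CPM at day 7, a change of 1.02 in air and of 0.46 in dust (adjusted p = 0.0373 and 0.215). Myom1, a sarcomere protein gene, changed by -1.32 in air and by 0.60 in dust (adjusted p = 0.0322 and 0.213).

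Rats of the 10 mg/m3 study, with 4 dust rats at day 27 and 5 at day 7, gave 1 call of 15668 genes (0.00638%), and 703 (4.49%) had an unadjusted p under 0.05. That gene was Igsf10, an immunoglobulin superfamily protein gene, which changed by -0.63 after 10 mg/m3 (adjusted p = 0.027) and by -0.66 after 30 mg/m3 (adjusted p = 0.000923). At 30 mg/m3 it had 97.5, 113 and 122 CPM at day 27 and 134, 177 and 223 CPM at day 7, without overlap. Of the genes called after 30 mg/m3 and tested at both doses, 1085 of 1734 (62.6%) had the same sign after 10 mg/m3, and of all genes 55% did. Among those that fell the share was 69.2% and among those that rose 53.2%. Scn3b changed by -0.88 after 10 mg/m3 (adjusted p = 0.0572). The doses have their own rats and count tables and were fitted separately.

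**Figure D5:**
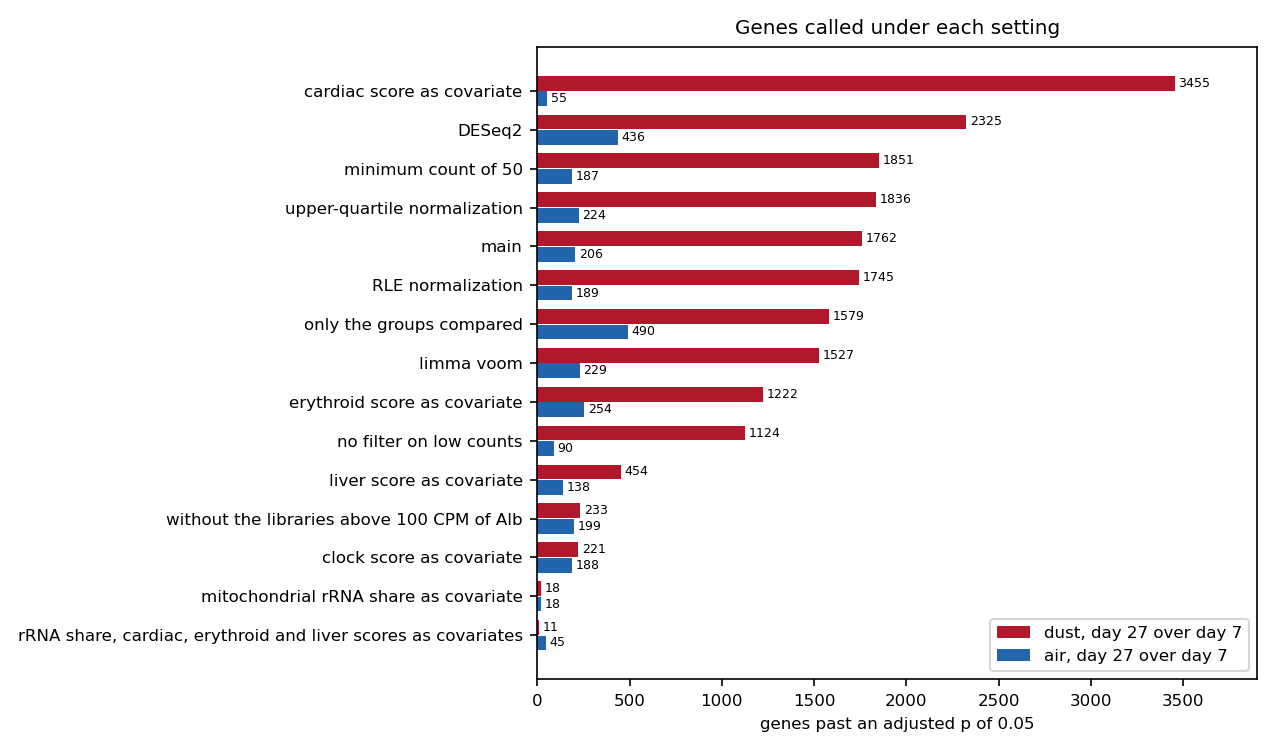
Number of genes past an adjusted p of 0.05 for day 27 over day 7 under each setting, in dust rats (red) and air rats (blue), on a linear axis from 0. The dust count was 1527 to 2325 across tests, normalizations and filters other than the fit with no filter (1124), and 18 with the mitochondrial rRNA share as a covariate, where the air count was also 18.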

How the data were processed

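Lung RNA of 64 rats was analysed, 12 of them in the comparison described here. Raw read counts per gene were deposited by the authors as 1 table per dose. The submitters' processing notes name HTSeq 0.6.1, HISAT2 2.1.0, Trimmomatic 0.35, bcl2fastq 2.19, SAMtools 1.8 and the build Rnor_6.0. Which annotation and strand option HTSeq used is not given, and reads of overlapping or antisense genes therefore cannot be told apart.

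Counts were tested with edgeR 4.0.16's quasi-likelihood test in R 4.3.3, with TMM factors and filterByExpr (minimum count 10, minimum total 15). All 36 libraries of the 30 mg/m3 study entered 1 fit with 6 groups, and Benjamini-Hochberg adjustment ran over all 15551 genes tested. DESeq2 1.42.0 and limma 3.58.1 voom were alternatives, with other normalizations, filters, covariates and each rat left out in turn. A common BCV of 16.74% and 5090599 or more counts per dust library of day 27 and day 7 set the precision.

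On simulated counts for this comparison (15408 genes), 99% of 100 genes changed 2-fold and 52% of 100 genes changed by a smaller step were recovered, with 12 false calls. Every simulated gene had the common BCV, only well-counted genes were changed, and no variation was shared between genes of a rat. The real libraries varied more, so these figures check the code and do not give the recovery or false calls in the rats. No pair of dust libraries of the same day, 15 pairs at day 27 and 15 at day 7, agreed within sampling noise. Other pairs were not examined. That libraries are separate rats rests on the numbers in their titles, and p-values measure the spread between these libraries. Named genes were the largest changes past the threshold with a mean of at least 1 CPM over the 12 libraries, called members of the lists and a panel of dust-response genes; not all are printed, some results are not reported here, and genes named outside this rule are marked. Fam64a, Anln and E2f7 came from the rule. Genes and lists were chosen with earlier results of these data known. Promoters came from RefSeq's GRCr8 table and were matched by symbol, for 10471 of the genes tested.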

Additional observations from a re-analysis of the deposited data

Results flagged for a closer look

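In 21 of 276 groups of 6 rats examined, 1 rat stood apart from the other 5 by Dixon's test, and chance flags about 1 in 20 groups. At day 27, dust rat 89 was set apart at the high end for the erythroid genes Alas2 (7084 CPM) and Ahsp (310.1 CPM) and for Rsad2 (2074 CPM) and Slfn14 (36.03 CPM). Dust rat 90 of day 27 was set apart at the high end for Hist1h1a (11.67 CPM), Hist1h2bcl1 (5.726 CPM), Hist1h3a (20.04 CPM), Pcna (70.81 CPM, with the next rat at 62.51 CPM), Plod2 (67.95 CPM, with the next rat at 57.42 CPM) and Spp1 (33.92 CPM). It was thus the day 27 rat nearest to the day 7 rats for the first 5 of these genes. Dust rat 94 of day 27 was highest for Bpifa1 (47.23 CPM) and Dbp (65.31 CPM), rat 96 for Rup2 (6.787 CPM) and rat 91 for Tmem59l (8.118 CPM).

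At day 7, dust rat 79 was set apart at the high end for the division genes Ccnb1 (9.441 CPM), Ccna2 (10.92 CPM) and Mcm4 (49.86 CPM). Rat 75 was highest for E2f7 (3.884 CPM) and Ldb3 (9.543 CPM) and rat 76 for Loxl4 (33.41 CPM), and rat 73 was lowest for Cdk1 (9.241 CPM).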

How the results depend on the processing

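The dust count of 1762 genes was 1124 with no filter on low counts, 18 with the mitochondrial rRNA share as a covariate, 3455 with the cardiac, 221 with the clock and 454 with the liver score, 11 with 4 covariates, and 233 without the libraries above 100 CPM of Alb. Other normalizations, tests and a stricter filter gave 1527 to 2325. Leaving out 1 rat gave 390 to 2283. The air count of 206 was 90 with no filter, 436 with DESeq2, 490 with only the groups compared, 18, 55 and 45 with the rRNA, cardiac and 4 covariates, and 59 to 289 without 1 rat. The count of genes whose dust and air changes differed, 0, was 50 with DESeq2, 1 with the liver score and 1 with 4 covariates, and 0 without any 1 rat. At 10 mg/m3 the count of 1 was 5 with DESeq2, 2 with only the groups compared, 3, 0 and 5 with the rRNA, clock and 4 covariates, and 0 to 4 without 1 rat. The cause of these shifts was not tested. Without 1 dust rat the day 27 minus day 7 difference was 0.909 to 1.45 for the cardiac score, 1.79 to 2.76 for the clock score, -123.73 to -4.93 for genes detected, -1938700 to -764280 for total counts, 0.615 to 0.859 for the rRNA percent and 0.1315 to 0.3501 for the percent of the top 10 genes.

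Some log2 changes turned sign, of which Dbp was the 1 that had passed the threshold. Cxcl1 gave -0.0128 with upper-quartile normalization, -0.0129 with no filter, -0.0101 with voom, -0.0179 and -0.0099 with the cardiac and liver scores, -6e-04 without the Alb libraries and -0.1188 to 0.1173 without 1 rat. Ccl2 gave 0.004 with voom, 0.1484 and 0.0682 with the rRNA and clock covariates and -0.1939 to 0.0464 without 1 rat. Mmp12 gave 0.0072 with voom, 0.1299, 0.0156, 0.1751, 0.0459, 0.0364 and 0.408 with the rRNA, cardiac, clock, erythroid, liver and 4 covariates, 0.0764 without the Alb libraries and -0.1693 to 0.0855 without 1 rat. Spp1 gave -0.555 with voom and -0.975 to 0.3643 without 1 rat, Hmox1 -0.0097 to 0.2002 without 1 rat and Myom1 -0.0105 with the cardiac score. With the clock score Dbp gave -0.1073 and Arntl 0.0172, and both genes are members of that score. No paired analysis was possible because the rat numbers differ between the groups. Library depth limits genes of a few CPM most.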
